A study of Mus musculus with 15 samples.

Results

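The genes described here act in mitosis, the phase in which a cell divides its copied chromosomes between its daughters, and on the spindle, the microtubule machine that moves them. They were taken from a list of 55 mouse genes, and a gene was a member if an Ensembl transcript in the expression table mapped to it. All 55 had a row, with 1 transcript each, among 12089 transcripts of 11960 genes. RNA-seq profiles of mouse dental mesenchymal cells (mDMCs) from ICR embryos at E14.5 were followed over time in culture. The mesenchyme of the mandibular first molar germ had been parted from its epithelium with dispase, digested with trypsin and passed through a sieve. The cells were profiled freshly isolated (0 h, 3 libraries) and after 12 h (2 libraries), 24 h (3), 36 h (3) and 48 h (3) in medium with fetal bovine serum. A further library came from dental mesenchymal tissue and had no replicate. No allele and no added agent is named for any group, and the labels do not say how many embryos were pooled or whether replicates came from separate cultures, so that p-values measure only the spread between these libraries.

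The values were whole-number scores that shared one distribution over all 15 libraries, with a median of 721 in each, and not read counts, so the depth is unknown and the score of one gene cannot be set against that of another. Transcript identifiers of 4 members named no ordinary coding transcript: those of Ttk and Ncapd2 were annotated as retained introns, that of Foxm1 as a processed transcript and that of Cenpa as subject to nonsense-mediated decay. Whether a score belongs to the gene or to that transcript alone is not stated. Within a time point the libraries correlated at Pearson's r between 0.968 and 0.991. In bulk RNA, fewer dividing cells and less of these RNAs per cell cannot be told apart. Summed scores of 8 epithelial genes were 14067 in 0 h replicate 1 against 1514 and 1883 in the other 0 h libraries, so the counts of all members against 0 h are also given without that library.

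Most of these genes are switched on late in the cell cycle. Cyclins A and B activate the kinase Cdk1 and start mitosis, Aurora and Polo-like kinases build the spindle, the kinetochore ties each chromosome to microtubules, and the spindle checkpoint holds the cell until every chromosome is attached. The anaphase-promoting complex then marks cyclin B and securin for destruction, sister chromatids part, and an actin ring divides the cell. Many promoters of this class carry a cell cycle genes homology region (CHR), whose letters TTTGAA or TTTAAA are bound by the MuvB complex, which represses in resting cells and works with the activators Mybl2 and Foxm1 in dividing cells, and CCAAT boxes, which are bound by NF-Y.

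Promoter windows of RefSeq (build GRCm38.p6, 250 bases before to 50 bases after a gene's start) matched 46 of the 55 members, and 42 of these lay within 300 bases of the start of the listed transcript. Letters were searched on both strands. TTTGAA or TTTAAA was found in 38 of 46 windows (82.6%), against 27.6% of the 32851 windows of all genes. TTTGAA alone was held by 34 (73.9%, against 17.9%), TTTAAA by 10 (21.7%, against 13.2%) and CCAAT by 33 (71.7%, against 37.4%). Both kinds stood together in 31 windows (67.4%), against 10.7% of all windows. E2F letters (TTTCCCGC, TTTCGCGC, TTTGCCGC or TTTGGCGC) were found in 2 windows (4.35%, against 2.26%). Such a match describes letters and not a bound site. The 4 members that fell most by 48 h among those with CHR letters are shown from 250 bases before to 20 bases after the start, 270 bases each, to let a reader see how the letters lie. They are Mki67 at chr7:135716360-135716629, Ccnb2 at chr9:70421535-70421804 and Top2a at chr11:99024170-99024439, all on the minus strand, and Kif11 at chr19:37376132-37376401 on the plus strand. Capitals mark CHR letters (TTTGAA, or TTCAAA on the other strand) and CCAAT boxes (CCAAT, or ATTGG on the other strand).
Mki67: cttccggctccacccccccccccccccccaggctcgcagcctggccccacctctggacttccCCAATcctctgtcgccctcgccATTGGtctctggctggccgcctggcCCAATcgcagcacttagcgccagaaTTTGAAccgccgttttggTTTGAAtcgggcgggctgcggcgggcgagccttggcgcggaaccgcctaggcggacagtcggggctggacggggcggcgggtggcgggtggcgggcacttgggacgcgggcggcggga
Ccnb2: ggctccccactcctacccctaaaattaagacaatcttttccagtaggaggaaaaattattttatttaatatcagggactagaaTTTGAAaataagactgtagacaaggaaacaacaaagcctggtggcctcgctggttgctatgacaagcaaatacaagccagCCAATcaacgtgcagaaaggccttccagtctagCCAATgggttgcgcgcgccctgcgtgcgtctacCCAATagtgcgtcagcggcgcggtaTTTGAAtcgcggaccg
Top2a: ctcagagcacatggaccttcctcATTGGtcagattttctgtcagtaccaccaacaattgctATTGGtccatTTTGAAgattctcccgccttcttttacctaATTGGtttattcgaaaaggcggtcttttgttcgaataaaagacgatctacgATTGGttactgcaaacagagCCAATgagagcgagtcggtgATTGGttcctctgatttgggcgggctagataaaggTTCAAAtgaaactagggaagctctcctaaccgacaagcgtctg
Kif11: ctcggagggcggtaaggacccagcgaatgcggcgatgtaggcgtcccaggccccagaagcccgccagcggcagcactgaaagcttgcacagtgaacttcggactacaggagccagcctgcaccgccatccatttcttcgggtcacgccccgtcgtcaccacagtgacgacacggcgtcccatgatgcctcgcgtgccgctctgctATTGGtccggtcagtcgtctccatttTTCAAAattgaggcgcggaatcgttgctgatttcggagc

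Mki67 held 2 CHR matches and 3 CCAAT boxes in this stretch, Ccnb2 held 2 and 3, Top2a held 2 and 6, and Kif11 held 1 of each. None of the marked letters overlapped, and no E2F letters lay in these 4 windows. Of the 21 members with a window that fell from 0 h to 48 h, 18 held CHR letters, and so did all 6 members that rose.

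As a group the members were lower at 12 h than at 0 h, had a median near that of 0 h at 24 h and were lower again at 48 h, but they did not all follow this course. At 12 h, 37 of 55 members were lower than at 0 h and 4 were higher at an adjusted p below 0.05 (limma, over 12079 transcripts), when 28.3% of all transcripts were lower and 29.9% higher. At 24 h, 15 members were lower and 13 higher than at 0 h, against 31.8% and 35.0% of all transcripts. At 36 h, 22 were lower and 7 higher, against 34.0% and 36.0%. At 48 h, 26 were lower and 6 higher, against 34.0% and 37.1%. Relative to 0 h, the median log2 change of the members went from -0.53 at 12 h to 0.03 at 24 h, then to -0.19 at 36 h and to -0.32 at 48 h, while the median of all transcripts was 0.02 at 12 h and 0.03 at 48 h. These 4 comparisons share the 0 h libraries and are not independent of each other. Without 0 h replicate 1, 31 members were lower and 3 higher at 12 h, 13 lower and 13 higher at 24 h, 19 lower and 8 higher at 36 h, and 24 lower and 5 higher at 48 h. Changes over 2-fold were seen in 11 members at 12 h, when 24.9% of all transcripts changed that much, in 7 at 24 h (28.5%), in 11 at 36 h (31.4%) and in 12 at 48 h (32.4%), a smaller share of the members than of all transcripts each time.

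**Figure D1:**
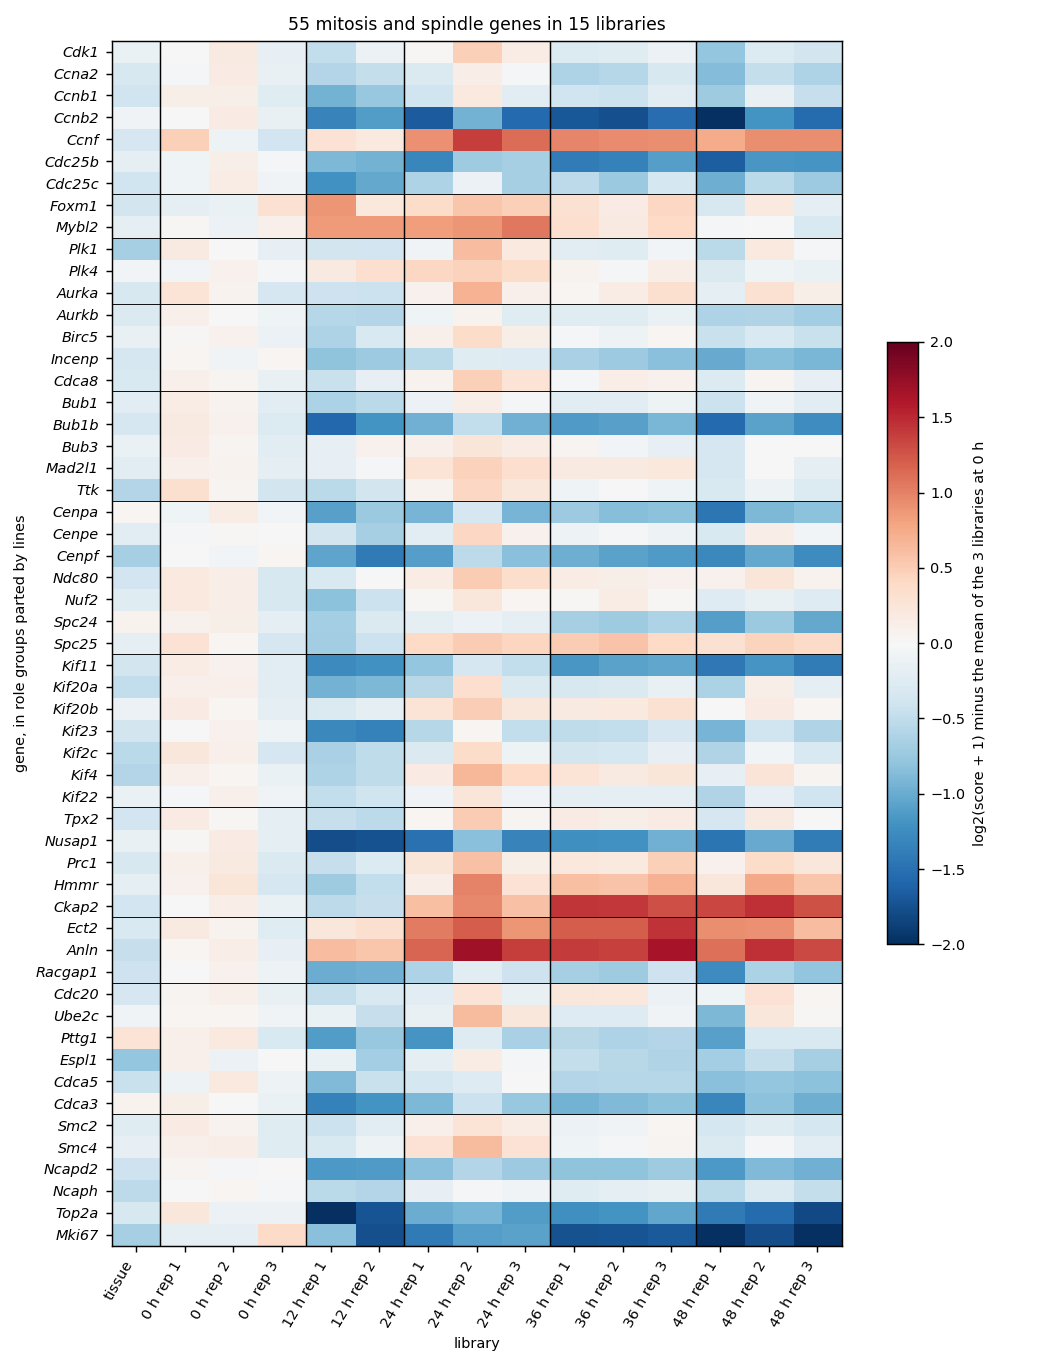
Heat map of log2(score + 1) of the 55 members (vertical axis, in role groups parted by lines) in the tissue library and the 14 libraries of cells (horizontal axis), relative to the mean of the 3 libraries at 0 h. Blue marks lower and red higher values: 37 members were called lower at 12 h, while Ccnf, Ckap2, Ect2 and Anln stand out in red from 24 h on.

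Time points of the highest and lowest mean were spread unevenly. The mean was highest at 0 h for 26 members (36.5% of all transcripts), at 24 h for 22 (12.5%), at 36 h for 6 (13.1%) and at 12 h for 1 (17.1%), and no member was highest at 48 h, where 20.8% of all transcripts had their highest mean. It was lowest at 12 h for 35 members, at 48 h for 17 and at 0 h for 3. Among all transcripts 16.3% were lowest at 12 h, 19.8% at 48 h and 39.0% at 0 h.

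**Figure D2:**
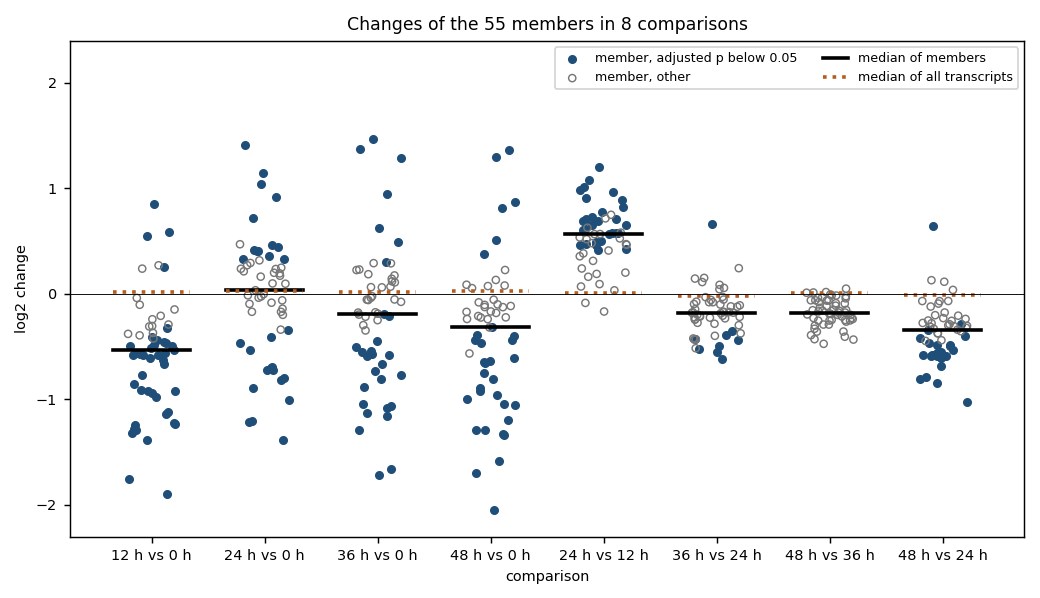
Log2 change (vertical axis) of each of the 55 members in 8 comparisons (horizontal axis); filled points passed an adjusted p below 0.05, open points did not, the black bar is the median of the members and the dotted line the median of all transcripts. The black bar lies at -0.53 for 12 h against 0 h and at 0.57 for 24 h against 12 h, and no point is filled for 48 h against 36 h.

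Cyclins, Cdk1 and its activating phosphatases made up the group for entry into mitosis, and 6 of its 7 members (85.7%) fell between 0 h and 48 h while 1 (14.3%) rose, against 34.0% and 37.1% of all transcripts. Ccnb2, cyclin B2 (chr9:70407692-70421547, 9 exons), scored 1621, 1832 and 1479 at 0 h, 651 and 757 at 12 h, 517, 847 and 558 at 24 h, 503, 481 and 571 at 36 h, and finally 316, 718 and 564 at 48 h. Every cultured library was below every 0 h library, and the mean went from 1644 ± 178 (SD, n = 3) to 533 ± 203 (n = 3) at 48 h. The log2 change was -1.70 (SE 0.25, adjusted p = 5.22e-05). Cyclin B1, Ccnb1, scored 4396, 4396 and 3393 at 0 h, 2092 and 2384 at 12 h, 3059, 4601 and 3480 at 24 h, 3059, 2996 and 3480 at 36 h, and finally 2464, 3650 and 2928 at 48 h. Its 12 h libraries were below all others, its 24 h libraries spanned the 0 h range, and its change at 48 h was smaller (log2 change -0.44, SE 0.17, adjusted p = 0.0321). That call was lost without 0 h replicate 1 or 2 or 48 h replicate 1 or 3, with adjusted p up to 0.14. Cdk1 (log2 change -0.47, adjusted p = 0.0141, lost without 0 h replicate 2 or 48 h replicate 1, adjusted p up to 0.0701), Ccna2 (-0.65), Cdc25b (-1.33) and Cdc25c (-0.75) also fell.

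Ccnf, cyclin F, a substrate adaptor of an SCF ubiquitin ligase, went the other way. It scored 791, 530 and 432 at 0 h, 688 and 649 at 12 h, 1072, 1484 and 1233 at 24 h, 1112, 1086 and 1079 at 36 h, and finally 952, 1075 and 1081 at 48 h. From 24 h on every library was above every 0 h library, and the log2 change at 48 h was 0.87 (SE 0.18, adjusted p = 0.000705).

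Both transcription factors of late cell-cycle genes were higher at 12 h than at 0 h, at the time point when most members were lower. Mybl2 scored 757, 690 and 800 at 0 h, 1346 and 1355 at 12 h, 1331, 1378 and 1554 at 24 h, 943, 845 and 983 at 36 h, and finally 734, 755 and 607 at 48 h. The libraries of 12 and 24 h lay above all others (log2 change 0.85 at 12 h, SE 0.11, adjusted p = 3.98e-05), and those of 48 h overlapped the 0 h range (-0.10, adjusted p = 0.378). Foxm1 scored 776, 800 and 1079 at 0 h, 1610 and 1018 at 12 h, 1127, 1283 and 1215 at 24 h, 1077, 978 and 1167 at 36 h, and finally 701, 1004 and 774 at 48 h. One of its 12 h libraries lay within the 0 h range. The log2 change at 12 h was 0.55 (SE 0.20, adjusted p = 0.0324), and the call was lost without 0 h replicate 1 (0.0943), 0 h replicate 2 (0.0913) or 12 h replicate 1 (adjusted p = 0.42). At 48 h its log2 change was -0.10 (adjusted p = 0.635).

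None of the 3 centrosome and spindle kinases passed at 48 h. Plk4, which starts centriole duplication, scored 1419, 1563 and 1431 at 0 h, 1663 and 1846 at 12 h, 1964, 2021 and 1900 at 24 h, 1549, 1445 and 1614 at 36 h, and finally 1209, 1389 and 1337 at 48 h. It was highest in the 3 libraries of 24 h and its 48 h libraries were all below those of 0 h, yet the log2 change of -0.17 did not pass (adjusted p = 0.0745). At 12 h Plk4 was higher (0.25, SE 0.09, adjusted p = 0.0252), a call lost without 0 h replicate 1 or 3 or 12 h replicate 2 (up to 0.188). Aurka, the spindle pole kinase Aurora A, scored 1630, 1416 and 1079 at 0 h, 1015 and 1007 at 12 h, 1431, 2199 and 1457 at 24 h, 1400, 1509 and 1697 at 36 h, and finally 1200, 1683 and 1478 at 48 h. The ranges of 0 h and 48 h overlapped (0.09, SE 0.18, adjusted p = 0.687). For Plk1 the log2 change at 48 h was -0.12 (adjusted p = 0.567).

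In the chromosomal passenger complex, which corrects wrong attachments and later guides cytokinesis, 3 of 4 members fell by 48 h (75%, against 34.0% of all transcripts). Incenp, its scaffold (chr19:9872296-9899551, 18 exons), scored 2058, 1906 and 2051 at 0 h, 1142 and 1212 at 12 h, 1385, 1697 and 1678 at 24 h, 1277, 1215 and 1126 at 36 h, and finally 996, 1116 and 1066 at 48 h. No cultured library reached the 0 h range (log2 change -0.92 at 48 h, SE 0.09, adjusted p = 1.17e-06). Aurkb, the kinase of the complex, scored 1572, 1452 and 1378 at 0 h, 985 and 974 at 12 h, 1385, 1539 and 1241 at 24 h, 1237, 1237 and 1341 at 36 h, and finally 956, 970 and 906 at 48 h. It overlapped the 0 h range at 24 h and was below both 12 h libraries at 48 h (-0.63, SE 0.09, adjusted p = 2.34e-05). Birc5, survivin, fell by 0.39 (adjusted p = 0.00423). Cdca8, borealin, scored 1624, 1582 and 1366 at 0 h, 1110 and 1356 at 12 h, 1588, 2125 and 1833 at 24 h, 1496, 1659 and 1615 at 36 h, and finally 1261, 1574 and 1362 at 48 h. Its ranges at 0 and 48 h overlapped (log2 change -0.13, adjusted p = 0.376). All 4 members of the complex rose from 12 h to 24 h, when 4.59% of all transcripts did, but none passed without 12 h replicate 1 (adjusted p between 0.0772 and 0.251) and 2 did without 24 h replicate 2.

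Among 5 spindle checkpoint genes, Bub1b was the one that passed at 48 h (20%, against 34.0% of all transcripts that were lower), although 4 passed without 0 h replicate 3 and 3 without 48 h replicate 2. It encodes BubR1 (chr2:118598211-118641591, 23 exons) and scored 4420, 4125 and 3210 at 0 h, 1313 and 1692 at 12 h, 2003, 2764 and 2003 at 24 h, 1775, 1832 and 2058 at 36 h, and finally 1328, 1840 and 1640 at 48 h. Every cultured library lay below the 0 h range (log2 change -1.29, SE 0.17, adjusted p = 1.45e-05). Bub3, the partner of Bub1 and BubR1, scored 2628, 2438 and 2018 at 0 h, 2094 and 2495 at 12 h, 2525, 2763 and 2605 at 24 h, 2428, 2272 and 2094 at 36 h, and finally 1856, 2339 and 2347 at 48 h. Its 24 h libraries were above all those of 12, 36 and 48 h, and its 48 h range overlapped that of 0 h (-0.11, adjusted p = 0.405). The log2 changes of Bub1, Mad2l1 and Ttk at 48 h were -0.24, -0.17 and -0.22, with adjusted p between 0.0742 and 0.192.

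Of 7 centromere and kinetochore genes, 6 fell at 12 h (85.7%, against 28.3% of all transcripts). The calls of Nuf2, Spc24 and Spc25 were lost without 12 h replicate 1, with log2 changes of -0.44, -0.29 and -0.43. At 48 h 3 of the 7 genes were lower (42.9%, against 34.0% of all transcripts) and 1 higher than at 0 h (14.3%, against 37.1%). Cenpf, a large protein of the outer kinetochore (chr1:189658725-189688086, 12 exons), scored 2679, 2566 and 2752 at 0 h, 1281 and 1004 at 12 h, 1245, 1850 and 1490 at 24 h, 1348, 1266 and 1214 at 36 h, and finally 1087, 1307 and 1108 at 48 h. Its cultured libraries stayed below those of 0 h (-1.20 at 48 h, SE 0.13, adjusted p = 4.19e-06). Cenpe, a kinetochore kinesin, scored 1955, 2018 and 2005 at 0 h, 1547 and 1259 at 12 h, 1724, 2647 and 2119 at 24 h, 1866, 1948 and 1861 at 36 h, and finally 1612, 2178 and 1908 at 48 h. After its low point at 12 h (-0.51, adjusted p = 0.0148, 0.144 without 12 h replicate 2) it lay around the 0 h level (-0.08 at 48 h, adjusted p = 0.631). Cenpa, the histone variant that marks centromeres, fell by 1.05 on the log2 scale at 48 h (adjusted p = 0.000195).

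The Ndc80 complex, which binds microtubules at the kinetochore, has 4 subunits, and their changes at 48 h were unlike. Spc24 fell by 0.96 (adjusted p = 1.25e-05). Spc25, its direct partner, scored 879, 739 and 565 at 0 h, 440 and 530 at 12 h, 941, 1021 and 968 at 24 h, 1021, 1063 and 940 at 36 h, and finally 887, 974 and 936 at 48 h. From 24 h on it was above all 0 h libraries (0.38 at 48 h, SE 0.13, adjusted p = 0.0226), and the call was lost without 0 h replicate 3, 48 h replicate 2 or 48 h replicate 3 (adjusted p up to 0.101). Ndc80 (0.13, adjusted p = 0.402) and Nuf2 (-0.22, adjusted p = 0.152) did not pass.

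Of 7 kinesins, 6 were lower at 12 h (85.7%, against 28.3% of all transcripts) and 3 at 48 h (42.9%, near the 34.0% of all transcripts). The 12 h calls of Kif2c and Kif22 were lost without 12 h replicate 1, with log2 changes of -0.51 and -0.39. That of Kif2c was also lost without 12 h replicate 2 (-0.65) and without 0 h replicate 1 or 2 (adjusted p = 0.0936 and 0.0763). Kif11, the motor that pushes spindle poles apart (chr19:37376403-37421859, 22 exons), scored 4968, 4766 and 3840 at 0 h, 1858 and 1943 at 12 h, 2631, 3558 and 3207 at 24 h, 2013, 2149 and 2196 at 36 h, and finally 1663, 1974 and 1712 at 48 h. It stayed below 0 h throughout (-1.34 at 48 h, SE 0.12, adjusted p = 5.66e-07), rose from 12 h to 24 h and fell again from 24 h to 36 h without overlap. Kif4, a chromosome-bound kinesin, scored 1823, 1749 and 1558 at 0 h, 1112 and 1203 at 12 h, 1910, 2709 and 2247 at 24 h, 2063, 1935 and 2013 at 36 h, and finally 1526, 2048 and 1781 at 48 h. It dipped at 12 h (-0.56, adjusted p = 0.00473), exceeded every 0 h library at 24 h and overlapped them at 48 h (0.05, adjusted p = 0.715). Kif20a, a kinesin of the central spindle, scored 3208, 3208 and 2584 at 0 h, 1552 and 1603 at 12 h, 2022, 3762 and 2455 at 24 h, 2397, 2455 and 2693 at 36 h, and finally 1921, 3250 and 2599 at 48 h, and its 24 h and 48 h libraries overlapped those of 0 h (-0.24 at 48 h, adjusted p = 0.329). Kif23 and Kif22 fell by 0.64 and 0.39 at 48 h (adjusted p = 0.0026 and 0.00759).

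Spindle microtubule-binding proteins and cytokinesis genes held 4 of the 6 members that were higher at 48 h. They were 2 of 5 genes (40%, near the 37.1% of all transcripts) and 2 of 3 genes (66.7%). Ckap2 (chr8:22168160-22185819, 9 exons) scored 1097, 1209 and 995 at 0 h, 763 and 796 at 12 h, 1666, 2134 and 1644 at 24 h, 2960, 2910 and 2678 at 36 h, and finally 2772, 3027 and 2662 at 48 h. It fell at 12 h with most members and then rose in each of the next intervals up to 36 h, to 2820 ± 187 (SD, n = 3) at 48 h against 1100 ± 107 at 0 h (log2 change 1.36, SE 0.11, adjusted p = 1.65e-07). Hmmr, a spindle assembly factor that is also a hyaluronan receptor, scored 1764, 1950 and 1315 at 0 h, 1010 and 1170 at 12 h, 1818, 3290 and 2014 at 24 h, 2497, 2467 and 2682 at 36 h, and finally 1935, 2783 and 2421 at 48 h. Its 48 h range touched that of 0 h (0.51, SE 0.21, adjusted p = 0.0424), and the call was lost without any of 7 libraries, namely 0 h replicates 1 and 3, 48 h replicates 2 and 3 and each 36 h library (up to 0.175). Tpx2, the activator of Aurora A, scored 3080, 2792 and 2448 at 0 h, 2011 and 1919 at 12 h, 2846, 3911 and 2869 at 24 h, 3080, 2992 and 3080 at 36 h, and finally 2178, 3121 and 2763 at 48 h, and after 12 h it overlapped the 0 h range (-0.05 at 48 h, adjusted p = 0.744). Nusap1 fell by 1.75 at 12 h and by 1.29 at 48 h.

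Anln, the actin-binding protein anillin of the cleavage ring (chr9:22332012-22389188, 24 exons), scored 2018, 2170 and 1755 at 0 h, 3027 and 2910 at 12 h, 4407, 6421 and 5160 at 24 h, 5218, 5079 and 6203 at 36 h, and finally 4252, 5430 and 4930 at 48 h. Every cultured library was above every 0 h library, already at 12 h (0.59, SE 0.16, adjusted p = 0.00577) and more so at 48 h (1.30, SE 0.14, adjusted p = 2.74e-06). Ect2, the exchange factor that activates RhoA at the division plane, scored 1523, 1413 and 1139 at 0 h, 1580 and 1676 at 12 h, 2774, 3123 and 2488 at 24 h, 3106, 3138 and 3674 at 36 h, and finally 2557, 2537 and 2063 at 48 h. Every cultured library was above every 0 h library. The change at 12 h did not pass (0.27, adjusted p = 0.119), and that at 48 h did (0.82, SE 0.13, adjusted p = 7.53e-05). Racgap1, which with Kif23 forms the centralspindlin complex that recruits Ect2, fell by 0.89 (adjusted p = 0.000139).

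Regulators of anaphase and of ubiquitin ligases fell in 3 of 6 cases at 48 h, near the 34.0% of all transcripts that were lower. Cdca3 scored 1438, 1331 and 1209 at 0 h, 517 and 574 at 12 h, 708, 978 and 778 at 24 h, 687, 718 and 752 at 36 h, and finally 533, 746 and 669 at 48 h, always below 0 h (-1.04 at 48 h, SE 0.14, adjusted p = 1.87e-05). Espl1, the protease separase, fell by 0.61 and Cdca5, the cohesion factor sororin, by 0.81. Cdc20, the activator of the anaphase-promoting complex, scored 2831, 2913 and 2459 at 0 h, 1958 and 2203 at 12 h, 2334, 3290 and 2451 at 24 h, 3191, 3158 and 2527 at 36 h, and finally 2558, 3347 and 2795 at 48 h (0.08 at 48 h, adjusted p = 0.635). Pttg1, securin, scored 712, 761 and 538 at 0 h, 305 and 393 at 12 h, 292, 554 and 424 at 24 h, 452, 433 and 443 at 36 h, and finally 313, 535 and 537 at 48 h. All its 48 h libraries were below those of 0 h, but the change of -0.56 did not pass (adjusted p = 0.0539). Ube2c, the ubiquitin-conjugating enzyme of that complex, scored 1051, 1047 and 970 at 0 h, 936 and 746 at 12 h, 924, 1580 and 1195 at 24 h, 855, 852 and 974 at 36 h, and finally 550, 1201 and 1044 at 48 h (-0.21, adjusted p = 0.464).

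Of 6 genes of chromosome structure, 5 fell by 48 h (83.3%, against 34.0% of all transcripts), and Mki67 fell more than any other member. Mki67, the proliferation marker Ki-67 that coats mitotic chromosomes (chr7:135689784-135716361, 14 exons), scored 5959, 5959 and 8916 at 0 h, 3819 and 2023 at 12 h, 2555, 3159 and 3229 at 24 h, 2042, 2058 and 2125 at 36 h, and finally 1377, 1997 and 1634 at 48 h. All cultured libraries were below 0 h and the 48 h libraries were below all others (log2 change -2.05, SE 0.22, adjusted p = 2.8e-06). Top2a, topoisomerase II alpha, which untangles sister chromatids (chr11:98992943-99024189, 36 exons), scored 36409, 28843 and 28843 at 0 h, 7414 and 9415 at 12 h, 15615, 16524 and 14391 at 24 h, 13296, 13670 and 15112 at 36 h, and finally 11636, 10718 and 8952 at 48 h. It fell by 1.90 at 12 h (SE 0.15, adjusted p = 3.54e-07), regained part of this by 24 h and was lower again at 48 h (-1.59 against 0 h, SE 0.13, adjusted p = 2.71e-07). Of the 4 members that encode subunits of condensin I, which compacts chromosomes, Ncapd2 (adjusted p = 2.57e-07), Ncaph (log2 change -0.44) and Smc2 (-0.32) fell by 48 h, whereas Smc4 did not pass (-0.18, adjusted p = 0.207), and the call of Smc2 was lost without 0 h replicate 1 or 2 (adjusted p up to 0.0667). Smc4 scored 6211, 6335 and 4869 at 0 h, 4660 and 5346 at 12 h, 7071, 8961 and 7071 at 24 h, 5434, 5620 and 5990 at 36 h, and finally 4713, 5620 and 4969 at 48 h, so that its 24 h libraries were above all others.

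**Figure D3:**
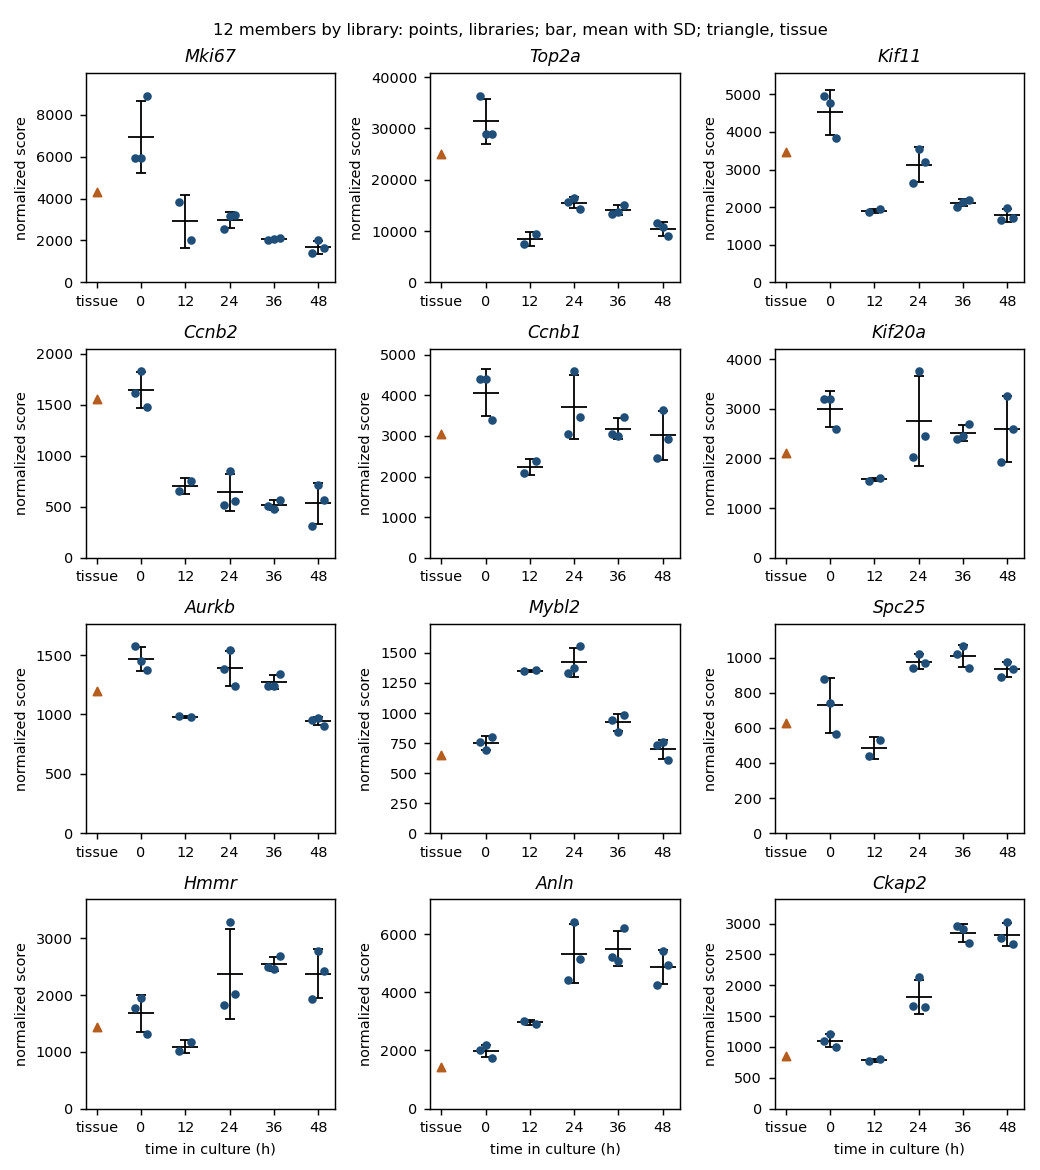
Normalized score (vertical axis, from 0) of 12 members against time in culture (horizontal axis, h); points are libraries, bars the mean with SD, and the triangle the tissue library. Mki67, Top2a, Kif11 and Ccnb2 lie below 0 h in every cultured library, Mybl2 is highest at 12 and 24 h, and Anln and Ckap2 end above 0 h.

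The rise from 12 h to 24 h took in 30 of 55 members and no member fell, when 4.59% of all transcripts rose and 3.67% fell. The median log2 change was 0.57 against 0.01 for all transcripts, and 53 of 55 members had a positive change. Ckap2 rose by 1.21 (SE 0.12, adjusted p = 9.5e-05), Hmmr by 1.08 (SE 0.23, adjusted p = 0.0151) and Spc25 by 1.01 (SE 0.15, adjusted p = 0.00222). By role, all 4 genes of the passenger complex rose, 5 of 7 kinesins, 4 of 5 spindle microtubule-binding proteins, 5 of 6 genes of chromosome structure, 3 of 7 genes for mitotic entry, 3 of 5 checkpoint genes, 3 of 7 kinetochore genes, 2 of 3 cytokinesis genes and 1 of 6 anaphase regulators, but none of the kinases or the transcription factors. Without 12 h replicate 1 each of these counts was 0 or 1. The number of calls rested on single libraries. Without 24 h replicate 2 it was 13, without 12 h replicate 1 it was 5, and with only the libraries of 12 h and 24 h in the fit it was 4, while Ckap2, Spc25, Kif4 and Ncaph passed in each of the 14 fits that left out 1 library.

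From 24 h to 36 h, 8 members fell and 1 rose, against 9.64% and 10.0% of all transcripts. Ckap2 rose by 0.66 (SE 0.11, adjusted p = 0.00199), while Mybl2 fell by 0.62 (SE 0.10, adjusted p = 0.00225) and Kif11 by 0.55 (SE 0.12, adjusted p = 0.0091). These 3 passed in every fit that left out 1 library. The others that fell were Espl1, Spc24, Ccna2, Smc4, Incenp and Plk4, and the count of 9 went to 4 without 24 h replicate 2 and to 4 without 36 h replicate 2. Over all transcripts, same-numbered libraries of 24 h and 36 h deviated together, though weakly (r = 0.127 to 0.165). The members' median log2 difference from the other libraries of the time point was -0.27 at 24 h and -0.05 at 36 h for replicate 1. It was 0.31 and -0.05 for replicate 2 and -0.04 and 0.11 for replicate 3. With the replicate number as a block Cdk1 (-0.43, adjusted p = 0.0233) and Cdca5 (-0.37, adjusted p = 0.0451) fell too.

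Between 36 h and 48 h no member passed in limma, when 0.00% of all transcripts were higher and 0.0248% lower. At an unadjusted p below 0.05 there were 13 members (23.6%), against 13.4% of all transcripts. Of the 55 changes, 51 were negative with a median of -0.18, against 47.4% of all changes and a median of 0.01. The sizes ran from -0.47 for Ect2 (adjusted p = 0.161), -0.43 for Aurkb (0.108) and -0.43 for Top2a (0.196) to 0.05 for Plk1. Without 48 h replicate 1, 1 member passed. Over the longer step from 24 h to 48 h, 24 members fell and 1 rose, against 11.7% and 12.2% of all transcripts, with a median of -0.34. Mybl2 fell by 1.03 (adjusted p = 6.94e-05), Mki67 by 0.84 (0.0152), Kif11 by 0.81 (0.000663) and Spc24 by 0.79 (0.000786), and Ckap2 rose by 0.64 (0.00123). The call of Mki67 was lost without 24 h replicate 2 or 3 or 48 h replicate 1 (adjusted p up to 0.0659). Same-numbered libraries of 24 h and 48 h also deviated together, and with the block Cdc25b fell as well (-0.44, adjusted p = 0.0362).

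Replicates of 24 h and of 48 h spread more in these genes than in the table as a whole. The median SD of log2 scores over the members was 0.210 at 24 h and 0.194 at 48 h, against 0.132 and 0.142 over all transcripts, and it was 0.167, 0.120 and 0.077 at 0, 12 and 36 h, against 0.173, 0.145 and 0.091. For 41 DNA replication genes, which act in S phase, it was 0.105 at 24 h and 0.106 at 48 h. The members shifted together. At 24 h, replicate 2 held the highest of the 3 scores in 51 of 55 members, with a median of 0.31 log2 units above the other 2 libraries, while it was highest in 5 of the 41 replication genes and in 23.6% of all transcripts. Replicate 1 was lowest in 42 members, in 24 of the 41 replication genes and in 40.3% of all transcripts. In the replication genes replicate 3 was highest, in 32 of 41. At 48 h, replicate 2 was highest in 49 members (median offset 0.25), in 23 of the 41 replication genes (0.08) and in 29.9% of all transcripts. Replicate 1 of 48 h was lowest in 48 members (median offset -0.27), in 25 of the 41 replication genes (-0.11) and in 38.3% of all transcripts, so that at 48 h the replication genes lay the same way as the members in both libraries. With 1 library of 24 h left out, the median SD of the members was 0.191 without replicate 1, 0.096 without replicate 2 and 0.288 without replicate 3, where replicate 2 is the library that lay highest.

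Within 24 h, the offset of replicate 2 was seen in nearly every role. Its median was 0.56 for the kinases, 0.45 for spindle microtubule-binding proteins, 0.43 for anaphase regulators, 0.39 for entry into mitosis and for kinesins, 0.25 for the kinetochore, 0.14 for chromosome structure and 0.04 for the 2 transcription factors. The widest spread at 24 h was that of Pttg1, Kif20a and Hmmr (SD 0.46 each on the log2 scale), and at 48 h that of Ccnb2 (0.61), Ube2c (0.60) and Pttg1 (0.45). Kif20a and Hmmr have their top score at 24 h in replicate 2, at 3762 and 3290 against at most 2455 and 2014 in the other libraries. Summed scores of epithelial genes were also higher in replicate 2, at 2134 against 1022 and 1115 at 24 h and at 1229 against 370 and 676 at 48 h, and those of 10 dental mesenchyme genes were 95444 in 24 h replicate 3 against 52054 and 58743. Their part in the offsets was not tested.

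**Figure D4:**
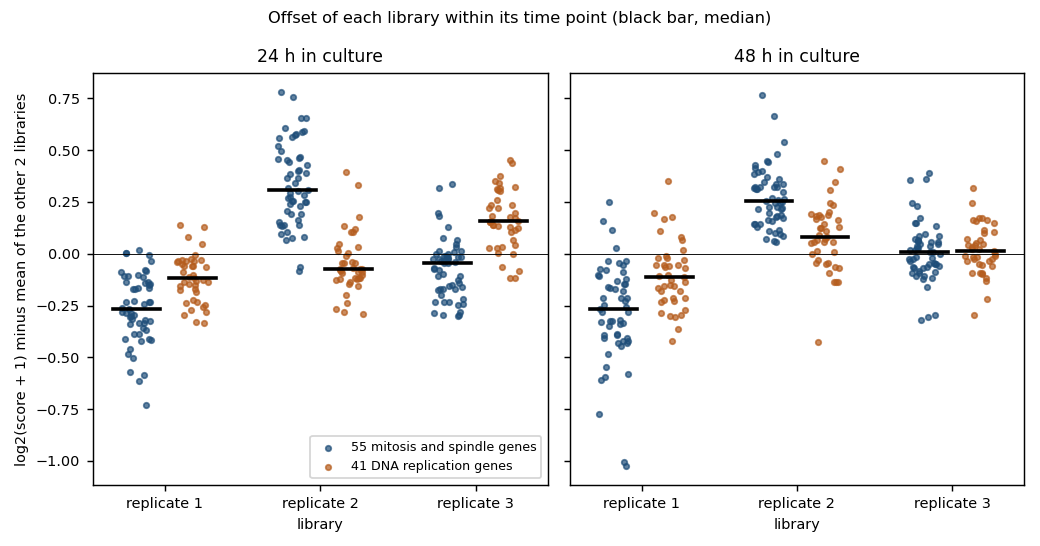
Log2(score + 1) of each library minus the mean of the other 2 libraries of its time point (vertical axis) for the 55 members (blue) and 41 DNA replication genes (orange), at 24 h and 48 h, with replicates on the horizontal axis and the median as a black bar. Most blue points of replicate 2 lie above 0 at both times (51 and 49 members were highest there), whereas the orange points are highest in replicate 3 at 24 h (32 of 41) and in replicate 2 at 48 h (23 of 41).

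Dental mesenchymal tissue was compared with the freshly isolated cells, without a test because it is 1 library. In 37 of 55 members the tissue was below all 3 libraries of 0 h, in 17 within their range and in 1 above, when 32.0% of all transcripts were below and 29.7% above. The median difference was -0.32 on the log2 scale, against -0.01 for all transcripts. Espl1 (-0.77), Mki67 (-0.67), Plk1 (-0.66) and Cenpf (-0.66) were farthest below, and Pttg1 was the member above (799 against 538 to 761). Mki67 scored 4292 in tissue and Top2a 25050, both between the 0 h and the cultured libraries. Ckap2 (845) and Anln (1432) in tissue were below 0 h, whereas their 48 h libraries were above it. Of the replication genes 24 of 41 were below, 15 within and 2 above.

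**Figure D5:**
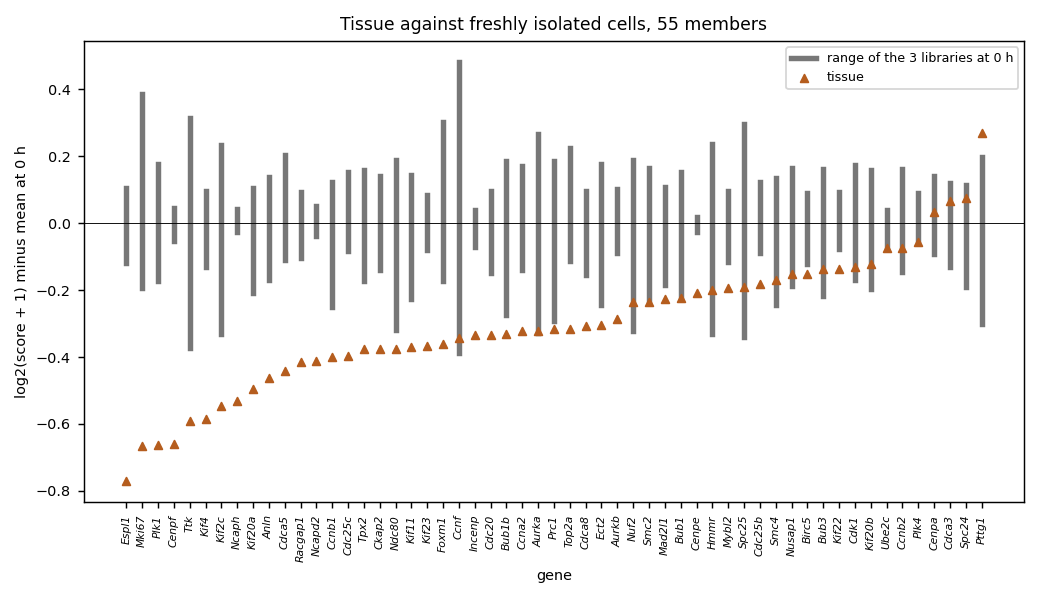
Log2(score + 1) of the tissue library (triangles) and the range of the 3 libraries at 0 h (bars), both relative to the 0 h mean (vertical axis), for the 55 members in order of the tissue value (horizontal axis). In 37 members the triangle lies below the bar and in Pttg1 above it.

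Other genes of the same processes were counted from lists written from general knowledge. A list of 41 further genes, of which 40 had a row, took in spindle proteins, kinesins, cytokinesis genes, condensin subunits, regulators of Cdk1 and a few chromatin and nuclear envelope genes. Of the 40, 18 (45%) fell and 6 (15%) rose by 48 h, when 34.0% of all transcripts fell and 37.1% rose. From 12 h to 24 h 19 rose (47.5%) and none fell, against 4.59% and 3.67% of all transcripts. Fewer rose without 12 h replicate 1, and 10 rose without 24 h replicate 2. Gtse1, a microtubule-binding protein of late cell cycle, had the greatest change of this list and rose from 306 ± 41 (SD, n = 3) at 0 h to 2271 ± 36 (n = 3) at 48 h (log2 change 2.90, SE 0.09, adjusted p = 7.83e-11). Lmnb1, lamin B1 of the nuclear envelope, fell by 2.38 (SE 0.13, adjusted p = 4.95e-09) and Hmgb2, a chromatin protein, by 2.01 (SE 0.10, adjusted p = 2.66e-09). Among 32 further kinetochore and centromere genes, 10 (31.2%) fell and 6 (18.8%) rose by 48 h, both shares below those of all transcripts, with Cenpm (-1.25), Cenpt (1.22) and Hjurp (adjusted p = 6.06e-07, lower) as the greatest changes. From 12 h to 24 h 9 of them rose (28.1%, against 4.59% of all transcripts). Those calls were lost without 12 h replicate 1, while 2 rose without 24 h replicate 2 and 5 without 24 h replicate 3.

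The shares of the next lists at 48 h stand beside 34.0% of all transcripts that fell and 37.1% that rose. Among 16 subunits and partners of the anaphase-promoting complex, 8 fell and 3 rose by 48 h (Anapc5 -1.05, Cdc26 -0.77, Anapc10 0.74), which is 50% and 18.8%. Of 12 cohesin genes, 7 (58.3%) fell and 1 (8.33%) rose by 48 h (Pds5b -1.51, Rad21 -1.41, Smc1a -1.01). Of 12 MuvB, E2f4, pocket protein and NF-Y genes with a row, 6 (50%) fell and 3 (25%) rose by 48 h (Tfdp2 -1.24, Rbbp4 -1.04, Rbl1 -0.90). DNA replication genes fell in 32 of 41 cases (78%) and rose in 4 (9.76%, and 2 without 0 h replicate 3 or 48 h replicate 3), with a median of -0.61 (Lig1 -1.61, Mcm6 -1.41, Mcm4 -1.36). From 12 h to 24 h, 2 of the replication genes rose and 2 fell (4.88% each, near the 4.59% and 3.67% of all transcripts). The rises were lost without 12 h replicate 1 or 24 h replicate 2. The falls numbered 1 to 4 with 1 library left out, 4 without 24 h replicate 3. Their median in this step was -0.06, where the members' median was 0.57. From 24 h to 36 h 15 of the 41 fell (36.6%, against 9.64% of all transcripts), and 5 to 8 without 24 h replicate 2 or 3 or 36 h replicate 1 or 2.

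Markers of red cells, endothelium and macrophages summed to less in every cultured library than at 0 h, whereas epithelial sums overlapped. Summed scores of the 6 red cell genes with a row were 97654 to 150514 at 0 h and 51 to 757 in culture, those of 7 endothelial genes 9099 to 10727 and 600 to 975, those of 4 macrophage genes 782 to 1078 and 293 to 698, and those of 8 epithelial genes 1514 to 14067 and 91 to 2732. In tissue they were 135500, 12435, 1512 and 5059. The high epithelial sum at 0 h was that of replicate 1. Replicates 2 and 3 of 0 h (1514 and 1883) were below both 12 h libraries (2339 and 2732). Tie1 and Cdh5 were listed at 0 in a library of 36 h, and Tie1 also at 48 h, Hbb-bt at 48 h and Krt5 at 36 h. Dental mesenchyme genes summed to 82908 to 98231 at 0 h and 46254 to 95444 in culture, and all 10 had a score in each library. The part of these cell types in the changes from 0 h was not tested.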

How the data were processed

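RNA-seq of 15 libraries was used: 14 of mDMCs at 0, 12, 24, 36 and 48 h and 1 of tissue, grouped by their labels. The authors trimmed the reads, aligned them with bowtie to the mouse transcriptome (mm10, Ensembl), estimated expression with RSEM and called genes with DESeq2. For RSEM the submitters' processing notes give version 1.1.21, and the paper's methods give another version. The authors deposited 1 table of normalized scores, whole numbers whose library totals lie between 21357605 and 21365980. The deposited table is labelled as CPM, which such sums do not match. How the scores were normalized is not given in the sources used here, and because the libraries share one distribution, depth, counting error and changes in total RNA cannot be seen.

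Transcripts were matched to genes with GENCODE on GRCm38, the build called mm10, and 116 stayed unmatched. Scores were analysed as log2(score + 1) with limma 3.58.1 under R 4.3.3. Each of the time points had its own mean, the 14 cell libraries shared one spread, eBayes used an intensity trend, and two-sided p-values were adjusted by Benjamini-Hochberg over the 12079 transcripts that reached 1 ppm of a library's sum in 2 or more libraries. A call is an adjusted p below 0.05. A count test was not run because the table holds no counts. Simulated data with known changes were used to test the fit. Tables and plots used Python 3.11.15, pandas 2.3.3, numpy 2.4.6 and matplotlib 3.10.9.

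The members, role groups and lists were chosen with earlier results of these data known. Scores of every library are given for 30 members: in each role group those with the greatest and the smallest change from 0 h to 48 h, the 3 greatest changes of each interval after 12 h, all that were higher at 48 h, and the 3 with the greatest replicate SD at 24 h and at 48 h. Of other lists, up to 3 called genes with the greatest change are named. Promoters shown are those of the 4 greatest falls by 48 h among members with CHR letters, none from chromosome 18. Alternatives were a pseudocount of 0.1, other filters, trimmed-mean scaling, no intensity trend, only the compared time points, the study's threshold, a replicate block, and each library left out in turn. Over all transcripts tested, deviations from the time-point means correlated above 0.1 for all 3 same-numbered pairs between 24 h and 36 h (0.127 to 0.165). So did those between 24 h and 48 h (0.201 to 0.318). None of the 6 other pairs did in either case, but their values are not independent of these, because deviations are taken from the time-point mean. Between no other time points did all same-numbered pairs pass 0.1. By this hint from the data, and not from the labels, a fit with the replicate number as a block is given beside the main fit in those 2 comparisons. The main fit does not pair libraries, and it gave all their counts, SEs and p-values except where the block is named.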

Additional observations from a re-analysis of the deposited data

How the results depend on the processing

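With the threshold of the study's methods, an unadjusted p below 0.05 and a fold change above 2, the members that passed numbered 11, 7, 11 and 12 at 12, 24, 36 and 48 h against 0 h, 3 in the 12 to 24 h step, 0 in the 24 to 36 h step and 1 in the 24 to 48 h step (24.3%, 28%, 31.1%, 32.1%, 3.68%, 4.17% and 5.05% of all transcripts), where the adjusted p alone gave 41, 28, 29, 32, 30, 9 and 25. With only the compared time points, 4 members passed in the 12 to 24 h step. Leaving out 1 library in turn gave 28 to 45 members at 12 h, 24 to 28 at 24 h, 24 to 32 at 36 h and 29 to 37 at 48 h against 0 h, 5 to 37 in the 12 to 24 h step, 4 to 12 in the 24 to 36 h step, 0 to 1 in the 36 to 48 h step and 17 to 27 in the 24 to 48 h step. Where a 12 h library was left out, the other was assumed to vary like the other time points. Of the calls, 25 of 41 at 12 h, 20 of 28 at 24 h, 22 of 29 at 36 h and 27 of 32 at 48 h against 0 h were kept in all 14 such fits, and so were 4 of 30 in the 12 to 24 h step, 3 of 9 in the 24 to 36 h step and 17 of 25 in the 24 to 48 h step. Leaving out 12 h replicate 1 lost 13 calls at 12 h against 0 h and 26 in the 12 to 24 h step. No called change turned its direction in any alternative. The pseudocount, both filters, the trimmed-mean scaling and the fit without an intensity trend kept every count of members within 1.5 times. Over all time points, 11 of 26 same-numbered and 6 of 52 other pairs of libraries correlated above 0.1 in their deviations. With a replicate block, 44, 30, 28 and 33 members passed at 12, 24, 36 and 48 h against 0 h, 36 in the 12 to 24 h step, 11 in the 24 to 36 h step, 0 in the 36 to 48 h step and 26 in the 24 to 48 h step. Depth is unknown, so counting error is not covered by any of these values.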

Other observations

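Across the 14 libraries of cells, each member was correlated with the median of the other 54 on the log2 scale, as a description of libraries that share time points. Kif22 (Pearson's r = 0.958), Ccnb1 (0.951) and Bub1 (0.950) followed that median most closely. Foxm1 (-0.013), Anln (0.014), Mybl2 (0.016), Ckap2 (0.089), Ect2 (0.101), Ccnf (0.200) and Plk4 (0.329) followed it least, and Mki67, often read as a stand-in for proliferation, came next (0.443).

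In 0 h replicate 3, 42 of 55 members had the lowest of the 3 scores of 0 h, as did 32 of 41 replication genes and 44.0% of all transcripts, but 4 members had their highest there, namely Mki67 (8916 against 5959 in both others), Foxm1 (1079 against 776 and 800), Mybl2 (800 against 757 and 690) and Cenpf (2752 against 2679 and 2566). At 12 h, 40 members, 34 of 41 replication genes and 58.4% of all transcripts were lower in replicate 1 than in replicate 2, while 15 members were higher there, by the widest ratio Mki67 (3819 against 2023) and Foxm1 (1610 against 1018).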
